A study of Mus musculus with 6 samples.

Results

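Gamma-delta T cells are lymphocytes whose T cell receptor pairs a gamma chain with a delta chain in place of the alpha and beta chains of CD4 and CD8 T cells. Many of them leave the thymus already committed to interleukin-17 (IL-17) and settle in barrier tissues, where interleukin-1 and interleukin-23 drive them. In the mouse meninges they are known as resident cells and as a source of IL-17 in health.

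In these data gamma-delta T cells were 212 of the 8804 cells that passed the filters, out of 17560 deposited barcodes. A member had at least 500 detected genes, at most 10% mitochondrial UMIs (unique molecular identifiers, each standing for 1 captured RNA), a UMI of at least 1 of the 3 Cd3 genes, and a UMI of at least 2 of the 4 marker genes Trdc, Tcrg-C1, Cd163l1 and Trdv4. It had no UMI of Cd4, Cd8a, Cd8b1, Csf1r or Cd79a. The members were thus chosen by the measured UMIs of these 12 genes, which are given below as a description and enter no test. Of 1062 cells with a Cd3 UMI, 215 had 2 or more marker genes, and 3 of these were left out because they held Cd8a. All 4 markers were found in 150 members, 3 in 31 and 2 in 31. Just outside the rule lay 102 cells with exactly 1 marker gene, of which 36 had Trdc, and 25 cells with 2 markers and no Cd3 UMI. Just inside it were the 31 members with 2 markers, at a median of 7156 UMIs, against 7020.5 in the 102 cells with 1 marker. The comparison group was 657 other T cells, with at least 2 Cd3 genes, no Trdc UMI and no membership. It held 206 cells with Cd4 and no Cd8 (CD4 T cells) and 174 with Cd8a or Cd8b1 and no Cd4 (CD8 T cells). The median member had 5975 UMIs, and the median other T cell 6455.

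The cells came from untreated wild-type C57BL6 mice, 8 to 16 weeks old, profiled by 3′ single-cell RNA sequencing. There were 4 libraries of the cortical surface (brain with the leptomeninges attached, pooled from 6 to 10 mice each). The 2 bone-associated libraries held meningeal tissue such as the dura, taken off the inside of the skull and pooled from 8 mice each. Each library is 1 pool, so n counts libraries. Blood-borne cells cannot be told apart from resident ones, because, as the paper states, the mice had not been perfused when cells were isolated. Throughout, where 6 values follow each other they stand for cortical surface libraries 1, 2, 3 and 4 and then bone-associated libraries 1 and 2. Gamma-delta T cells numbered 5, 2, 20, 18, 21 and 146 in that order, and other T cells 23, 17, 107, 205, 99 and 206. Bone-associated library 2 alone supplied 146 of the 212 members. Values in the first 2 cortical surface libraries rest on 5 and 2 members, so those libraries are shown but entered the tests across genes only where they are named. Levels are UMIs summed over the cells of a library, scaled to 1000000 of their UMIs outside the hemoglobin genes (counts per 1000000, CPM), unless said otherwise.

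The marker Tcrg-C1 is 1 of 4 related gamma constant regions on chromosome 13 (GRCm38, GENCODE vM21), at chr13:19214103-19217024, and Trdc, the only delta constant region, lies at chr14:54142851-54148868. The same stretch of the 4 gamma constant transcripts, bases 16 to 75, is shown because Tcrg-C2 and Tcrg-C3 differ from Tcrg-C1 there at 1 base and Tcrg-C4 at 4 (capitals mark bases that differ from Tcrg-C1).
Tcrg-C1: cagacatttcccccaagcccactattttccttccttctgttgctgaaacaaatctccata
Tcrg-C2: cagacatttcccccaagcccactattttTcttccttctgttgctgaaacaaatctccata
Tcrg-C3: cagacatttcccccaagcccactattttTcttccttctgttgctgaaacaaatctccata
Tcrg-C4: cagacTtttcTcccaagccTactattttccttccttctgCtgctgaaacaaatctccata
Over the aligned transcripts, Tcrg-C2 was identical to Tcrg-C1 at 96.1% of 906 bases, Tcrg-C3 at 97.2% of 647 and Tcrg-C4 at 83.8% of 308. Reads of the copies may have been split or dropped by the counting, and values of Tcrg-C2 and Tcrg-C4 are uncertain and not independent of the marker Tcrg-C1.

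Libraries differed in ways that touch every comparison between the preparations. Hemoglobin genes took 0.287, 0.0906, 84.6, 71.9, 0.496 and 0.520% of all UMIs, so cortical surface libraries 3 and 4 stood apart. Within the gamma-delta T cells the share was 0, 0, 19.3, 0.273, 0.00451 and 0.00729%. Their median mitochondrial share of UMIs was 3.85, 4.95, 3.26, 3.42, 5.07 and 5.89%, so it too was higher in both bone-associated libraries. Ddx3y, a Y-linked gene, had no UMI in cortical surface libraries 1 and 2 or in either bone-associated library (0 of 743, 1252, 963 and 2502 cells, which allows up to 0.404, 0.240, 0.312 and 0.120%), although the methods describe equal numbers of both sexes. In cortical surface libraries 3 and 4 it had 270 and 547 UMIs. Xist, the RNA of the inactive X chromosome, was found in 84.5, 94.4, 35.7, 31.8, 87.4 and 93.7% of cells that passed. Libraries 3 and 4 of the cortical surface thus held cells of both sexes by these genes, and the others did not show male cells. These are also the only cortical surface libraries with enough gamma-delta T cells to test. No barcode of a member was also kept as a cell in another library. Among all deposited barcodes, 1 of a member was shared between cortical surface library 3 and bone-associated library 2, and 1 between cortical surface library 4 and bone-associated library 2.

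Of the Cd3 genes, which the rule used, Cd3e was found in 96.2% of members, Cd3d in 97.2% and Cd3g in 100%. Of genes the rule did not use, the receptor chain Cd247 was found in 74.5% and the pan-leukocyte gene Ptprc in 92.0%. Trdc was found in 99.1%, at 1179, 1019, 1921, 2029, 3212 and 3931 CPM. Tcrg-C1 was found in 95.3%, at 283, 728, 653, 734, 655 and 699 CPM. Cd163l1, a scavenger receptor known from IL-17-producing gamma-delta T cells, was found in 85.4%, at 283, 1164, 584, 785, 873 and 1134 CPM. Trdv4, a delta variable segment, was found in 76.4%, at 94.3, 291, 761, 785, 1166 and 477 CPM. As a background for such shares, Trdc was found in 0.384% of 782 B cells (Cd79a and Cd79b, no Cd3; median 4435.5 UMIs) and in 24.6% of 228 NK cells (Ncr1, no Cd3; median 5546.5 UMIs), a cell type that is known to transcribe the delta constant gene. Lck and Cd2, T cell genes also on the list for checking the label and not in the rule, went against it. Lck was found in 13.7% of members against 85.5% of other T cells, and Cd2 in 23.6% against 82.0%. Among markers of other cell types, the B cell genes Ms4a1 and Ighd had no UMI in any member. The NK cell genes Gzma, Klra8 and Klra4 had none either, but Ncr1 or Klrb1c was present in 10 members, 3 of them among the 5 of cortical surface library 1. The summed level of the 7 NK cell genes was 825, 0, 84.5, 194, 15.04 and 18.5 CPM, with Ncr1 the most abundant in library 1 (424 CPM) and Klre1 in cortical surface libraries 3 and 4 (76.8 and 81.6 CPM). The 13 myeloid genes summed to 212, 218, 69.2, 102, 113 and 783 CPM and the 10 stromal and vascular genes to 141, 218, 61.5, 51.0, 75.2 and 476 CPM, so both were highest in bone-associated library 2, led there by Lyz2 (349 CPM) and Col1a2 (101 CPM). Of group 2 innate lymphoid cell genes, Calca carried nearly the whole sum (0, 0, 0, 0, 67.7 and 135 CPM), and Il5 had no UMI. A doublet caller marked 5 members, all in bone-associated library 2.

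Variable segments lie at the 5′ end of receptor transcripts and are caught sparsely by a 3′ method, and 75 of 212 members had no UMI of any gamma variable segment counted. Tcrg-V6 (chr13:19190356-19190929) was the most frequent, in 37.7% of members (113 UMIs). Trgv2 was found in 31.6%, Tcrg-V1 in 11.8%, Tcrg-V5 in 7.08% and Tcrg-V4 in 4.25%. By cell, 44 members had Tcrg-V6 alone, 28 Trgv2 alone, 19 both, 10 Tcrg-V1 alone and 7 Tcrg-V5 with Tcrg-V6. A segment's UMIs can come from unrearranged or out-of-frame transcripts, so these counts do not give the receptor of a cell.

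The gamma-delta T cells were then compared with the other T cells of the same 4 libraries (cortical surface 3 and 4, bone-associated 1 and 2), 205 against 617 cells, with the library as a block (edgeR quasi-likelihood test). A gene was called at an adjusted p under 0.05 and a log2 fold change of at least 1.3. Of 5827 genes tested, 381 were called, 6.54%, of which 229 (3.93%) were higher and 152 (2.61%) lower in gamma-delta T cells. For 662 genes (11.4%) the levels of the groups did not overlap over the libraries. A gene was tested if at least 10% of the cells of either group held a UMI of it. Of the 229 genes called higher, 160 reached that limit through gamma-delta T cells alone, and of the 152 called lower, 99 through other T cells alone. A gene that enters in this way has its direction set by the limit, so the counts and medians of lists below are descriptions. The 12 genes of the rule were not tested. They include Cd163l1 and Trdv4, which go with IL-17-producing cells. The median log2 fold change of all tested genes was −0.03.

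Of the 17 other gamma and delta segments listed, 4 were tested (Tcrg-V6, Tcrg-V1, Tcrg-C2 and Tcrg-C4) and 13 did not reach the detection limit. The 4 passed it only through the gamma-delta T cells, so that they were higher says little, and they share the locus of the marker Tcrg-C1. Reads of the 2 constant regions may also be shared with Tcrg-C1, which was not measured. Tcrg-V6 stood at 23.6, 0, 154, 81.6, 97.8 and 73.0 CPM in gamma-delta T cells, against 0, 0, 0, 0.712, 2.73 and 0.653 CPM in other T cells. The log2 fold change was 6.22 ± 0.48 (SE, n = 4 libraries, edgeR adjusted p = 3.15e-09), and the groups did not overlap. Tcrg-V1 was higher by a log2 fold change of 3.61 ± 0.57 (adjusted p = 7.75e-05). Trac, the alpha constant region (chr14:54220521-54224206), stood at 0, 0, 131, 20.4, 45.1 and 33.9 CPM against 930, 700, 492, 412, 794 and 679 CPM in other T cells. It was lower in every library, by −3.82 ± 0.26 on the log2 scale (adjusted p = 4.12e-10). It was still found in 16.98% of members, against 89.95% of other T cells, 9.21% of NK cells and 0.384% of B cells. The beta constant regions did not part the groups in that way. Trbc2 was found in 94.8% of members and 98.2% of other T cells (log2 fold change −1.19 ± 0.12, edgeR adjusted p = 2.42e-07, under the fold limit), and Trbc1 in 71.7% and 56.9%.

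Of the 8 genes for the alpha-beta receptor and its partners, 6 were lower and none higher, with a median of −3.63. Of the 6, Cd28, Themis, Cd5 and Cd6 reached the detection limit through other T cells alone. Cd28, the main costimulatory receptor, stood at 38.4, 20.4, 22.6 and 19.5 CPM in the 4 tested libraries against 146, 167, 531 and 429 CPM in other T cells (log2 fold change −4.14 ± 0.28, edgeR adjusted p = 4.12e-10). Themis, needed for alpha-beta T cell selection in the thymus, had 4 UMIs in 205 members and 373 in 617 other T cells (−4.49 ± 0.58). The adhesion and signalling receptors Cd5, Cd6 and Cd2 were lower by −3.44 ± 0.28, −4.59 ± 0.39 and −2.21 ± 0.18. The groups did not overlap for any of these 5 genes.

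A pair of Src family kinases differed in opposite directions. Lck, which phosphorylates the Cd3 chains in most T cells, stood at 283, 0, 131, 51.0, 30.1 and 29.8 CPM in gamma-delta T cells and at 302, 421, 351, 301, 336 and 335 CPM in other T cells. It was lower by −2.96 ± 0.25 on the log2 scale (edgeR adjusted p = 1.3e-08). Blk, a family member better known from B cells (chr14:63372836-63417037), stood at 0, 72.8, 207, 173, 301 and 266 CPM against 0, 0, 1.54, 2.14, 2.73 and 7.84 CPM. It was higher by 5.62 ± 0.30 (adjusted p = 1.28e-11). Blk reached the detection limit through gamma-delta T cells alone, which sets its direction in this test, while Lck reached it in both groups. A Blk UMI was found in 69.8% of members, 1.52% of other T cells, 42.1% of B cells and no NK cell (0 of 228, which allows up to 1.32%). After every cell was thinned to 1500 UMIs, the shares were 29.2% of members and 0.609% of other T cells for Blk, and 4.25% and 38.7% for Lck. Cortical surface library 1 did not show this in its 5 members, with Blk at 0 in both groups and Lck at 283 against 302 CPM. Of 15 tested genes of receptor signalling, 4 were lower and none higher (median −0.38): Lck, the adaptor Fyb (−2.14 ± 0.20), the kinase Prkcq (−1.60 ± 0.27) and the inhibitor Ubash3a (3 against 96 UMIs, a ratio of 9.89, interval 3.29 to 48.8). Ubash3a reached the detection limit through other T cells alone. Zap70 and Cd247 were not called, at 0.57 ± 0.20 and 0.76 ± 0.17.

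**Figure D1:**
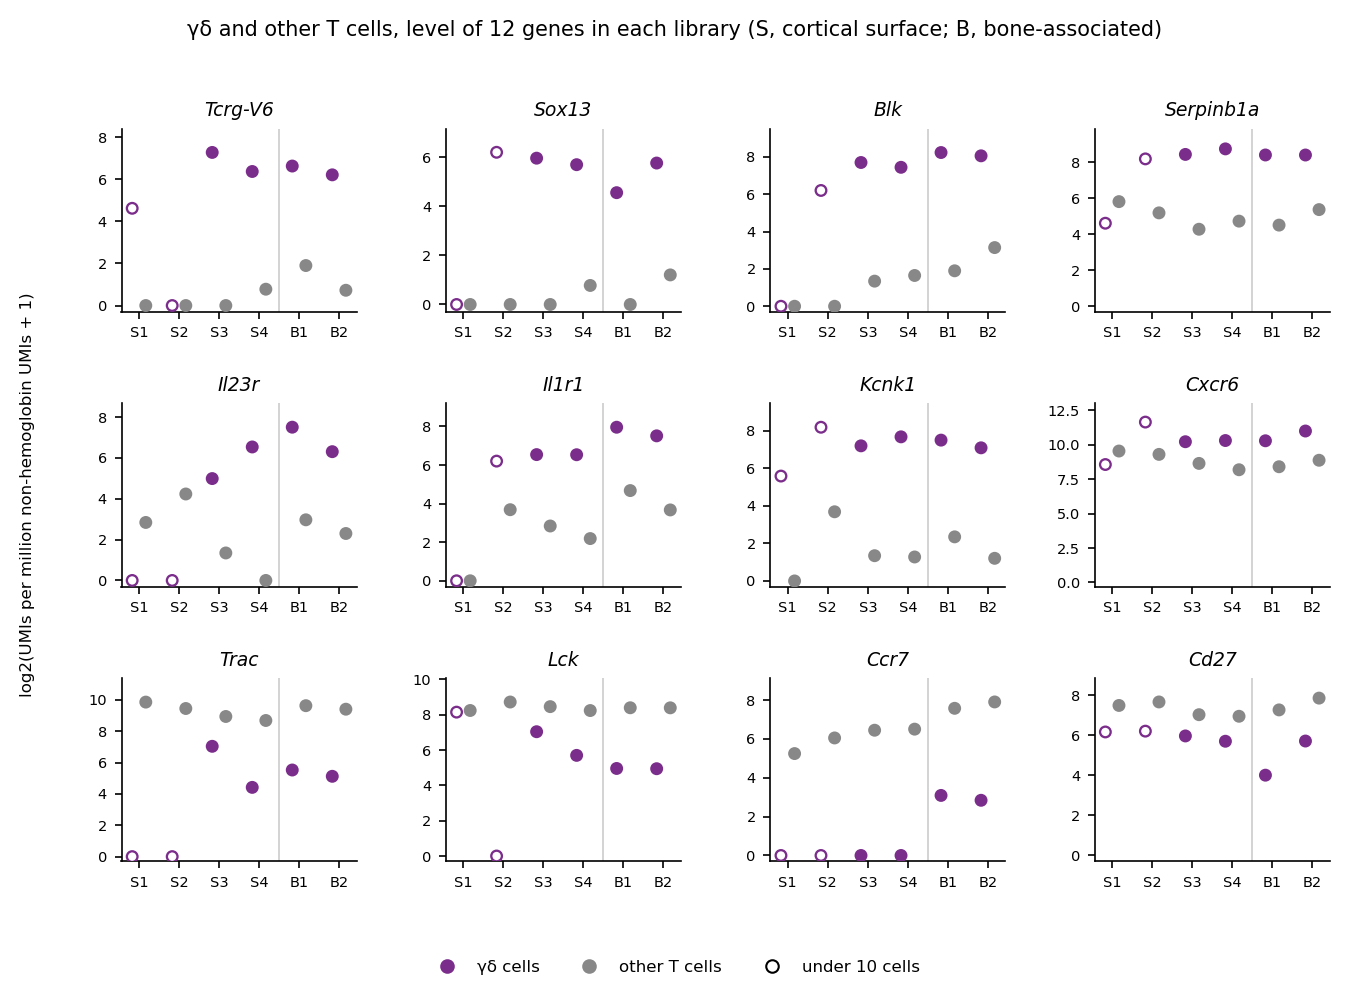
Level of 12 genes in each library, as log2(CPM + 1), for gamma-delta T cells and other T cells, with cortical surface libraries marked S1 to S4 and bone-associated libraries B1 and B2; each point is 1 library and open points rest on under 10 cells. In the 4 libraries with filled points, Tcrg-V6, Sox13, Blk, Serpinb1a, Il23r, Il1r1, Kcnk1 and Cxcr6 lie higher in gamma-delta T cells and Trac, Lck, Ccr7 and Cd27 lower.

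Of 12 listed transcription factors and kinases of the IL-17 fate, 10 were tested, 6 were higher (4 of them detected at the limit in gamma-delta T cells alone) and none lower, with a median of 1.45. Sox13, which directs gamma-delta precursors toward IL-17, had 68 UMIs in members and 3 in other T cells, a ratio of 73.3 (95% counting interval 24.05 to 364). Its levels were 61.5, 51.0, 22.6 and 53.4 CPM in the 4 tested libraries, and at most 1.31 CPM in other T cells. Zbtb16, the factor of innate-like lymphocytes, was higher by 2.90 ± 0.49 and Maf, a factor of IL-17-producing gamma-delta T cells, by 1.48 ± 0.19, with no overlap between the groups for either. Rora, a nuclear receptor, was called at 1.42 ± 0.16, yet its levels overlapped (200, 245, 978 and 803 CPM against 58.6, 42.0, 354 and 348 CPM). Ahr, Gata3, Id2 and Batf were not called.

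Of the tested cytokine receptors of this program, Il23r, Il1r1 and Il17re were higher and Il6ra lower; the first 3 reached the detection limit through gamma-delta T cells alone and Il6ra through other T cells alone. Il23r, the receptor for interleukin-23 (chr6:67422932-67491855), stood at 30.7, 91.8, 180.5 and 78.1 CPM in the 4 tested libraries and at 1.54, 0, 6.83 and 3.92 CPM in other T cells. The log2 fold change was 4.74 ± 0.44 (edgeR adjusted p = 6.26e-08). Il1r1, the receptor for interleukin-1, stood at 92.2, 91.8, 248 and 182 CPM against 6.17, 3.56, 24.6 and 11.8 CPM (3.68 ± 0.28, adjusted p = 2.49e-09). None of the 4 libraries of other T cells reached the lowest gamma-delta value for either. Il17re, a receptor for interleukin-17C, was higher by 2.39 ± 0.41 and Il6ra, the interleukin-6 receptor, was lower by −3.43 ± 0.54. With Il17a, Il17ra, Il12rb1 and Il21r not called, the list of type 17 cytokines and receptors had 3 genes higher and 1 lower of 8 tested, with a median of 0.47.

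Of 19 further genes known from IL-17-producing gamma-delta T cells, 17 were tested, 14 were higher and 1 (Lgals3, −1.34) was lower, with a median of 2.87. Kcnk1, Serpinb1a, Ltb4r1, Aqp3, Ly6g5b and Podnl1 reached the detection limit through gamma-delta T cells alone, and Lgals3 through other T cells alone. Kcnk1, a potassium leak channel, stood at 47.1, 291, 146, 204, 180.5 and 136 CPM against 0, 11.9, 1.54, 1.42, 4.10 and 1.31 CPM. It was higher in 6 of 6 libraries (6.17 ± 0.35, edgeR adjusted p = 4.2e-11 over the 4 tested). Serpinb1a, an inhibitor of serine proteases, stood at 346, 428, 338 and 338 CPM against 18.5, 25.6, 21.9 and 40.5 CPM (3.502 ± 0.20), and Tmem176a, an ion channel protein of type 17 cells, at 991, 806, 918 and 953 CPM against 58.6, 62.7, 141 and 110 CPM (3.17 ± 0.16). Of homing receptors on this list, Ccr2 stood at 622.4, 734, 519 and 798 CPM against 95.6, 88.3, 134 and 164 CPM (2.31 ± 0.15), and Cxcr6, a receptor of tissue-resident lymphocytes, at 1191, 1264, 1249 and 2042 CPM against 399, 290, 337 and 468 CPM (1.77 ± 0.12). The spread over libraries was small beside these differences. Actn2, Ltb4r1, Krt83, Aqp3, Ramp1 and Il18r1 were higher by 3.30, 3.20, 3.13, 3.02, 2.25 and 1.82. Ccr6, often used to mark such cells, had 8 UMIs in members and 47 in other T cells and did not reach the detection limit for testing.

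Of 14 listed genes of recirculating and naive T cells, 13 were tested, 9 were lower (5 of them detected at the limit in other T cells alone) and none higher (median −1.95). Ccr7, the receptor that takes T cells into lymph nodes, stood at 0, 0, 0, 0, 7.52 and 6.17 CPM against 37.0, 65.3, 86.3, 89.7, 190 and 239 CPM, lower by −5.36 ± 0.36 (edgeR adjusted p = 3.95e-10). S1pr1, the receptor that lets T cells leave tissues, had 22 against 792 UMIs (−3.77 ± 0.34). Klf2, the factor that maintains S1pr1, was lower by −2.81 ± 0.22, Lef1 by −2.15 ± 0.20 and Tcf7 by −1.80 ± 0.19. Cortical surface library 1 went against this for Klf2 (495 against 246 CPM), in its 5 members. In the list of 15 tissue residency genes 2 were higher (Cxcr6 and Gpr183) and 1 lower (Xcl1) of 11 tested, at a median of 0.59.

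Of 24 listed type 1 and cytotoxic genes, 18 were tested, 9 were lower (6 of them detected at the limit in other T cells alone) and none higher (median −1.35). Ccl5, a chemokine of cytotoxic cells, stood at 753, 918, 196 and 649 CPM against 2921, 3193, 2465 and 2526 CPM in the 4 tested libraries (−2.39 ± 0.17, edgeR adjusted p = 1.18e-09), though cortical surface library 1 had 4243 against 862 CPM. Nkg7, of cytotoxic granules, was lower by −1.88 ± 0.20 and Cd27, the costimulatory receptor of interferon-producing gamma-delta T cells, by −2.10 ± 0.25. Ifng had 18 UMIs in members and 417 in other T cells and was called at −2.99 ± 0.50 (adjusted p = 0.000158), but its levels overlapped (15.4, 81.6, 7.52 and 7.19 CPM against 67.8, 44.9, 137 and 137 CPM). Tbx21, Klrk1, Klrd1 and Prf1 were not called.

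Of 18 listed factors that act on other cells, 10 were tested, 3 were higher and 1 lower (median 0.70). Hbegf and Lta reached the detection limit through gamma-delta T cells alone and Tnfsf8 through other T cells alone. Hbegf, a ligand of the epidermal growth factor receptor, stood at 15.4, 40.8, 67.7 and 45.2 CPM against 1.54, 2.14, 6.83 and 7.19 CPM (2.94 ± 0.45, edgeR adjusted p = 5.24e-05). Tnf was higher by 1.59 ± 0.28 and Lta, its neighbour in the genome, by 2.01 ± 0.44, without overlap for either. Tnfsf8 had 4 against 270 UMIs. Csf2 was not called over the 4 libraries (−1.38 ± 0.60, edgeR adjusted p = 0.15). It was higher in the cortical surface libraries alone (5.45, adjusted p = 0.0011) and lower in the bone-associated libraries alone (−2.09, adjusted p = 0.00029), in fits chosen after seeing the data. It was found in 12.7% of members and 1.297% of other T cells. In the list of type 2 and regulatory genes, Il2ra was higher (2.50 ± 0.27) and Ctla4 lower (−2.51 ± 0.33, with overlap) of 5 tested, at a median of 0.55. Of 18 chemokine receptors 6 were tested, with Ccr2 and Cxcr6 higher and Ccr7 lower (median 0.26). Of 12 lipid genes 5 were tested, with Plin2, a coat protein of lipid droplets, higher (2.63 ± 0.35, with overlap) and Apoe lower (median 0.96). In the list of immediate-early and heat shock genes 1 of 16 tested was called (Hspa1b, higher; median 0.00). Of 10 cell cycle genes 2 were tested and 1, Stmn1, was lower (median −1.28).

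Members were chosen without Cd79a and Csf1r, markers of B and myeloid cells, while other T cells were not, so lower values of such genes are partly set by the rule. Both tested B cell genes, Ighm and Cd74, were lower (median −2.29), as were 1 of 2 myeloid genes (Apoe; median −1.26), 1 of 2 stromal and vascular genes (Acta2; median −2.05) and the 1 tested NK cell gene (Klre1, −1.59). The 1 tested gene of group 2 innate lymphoid cells, Calca, was higher (2.06). None of the 4 tested hemoglobin genes was called (median −2.05), and no neutrophil gene passed the detection limit.

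**Figure D2:**
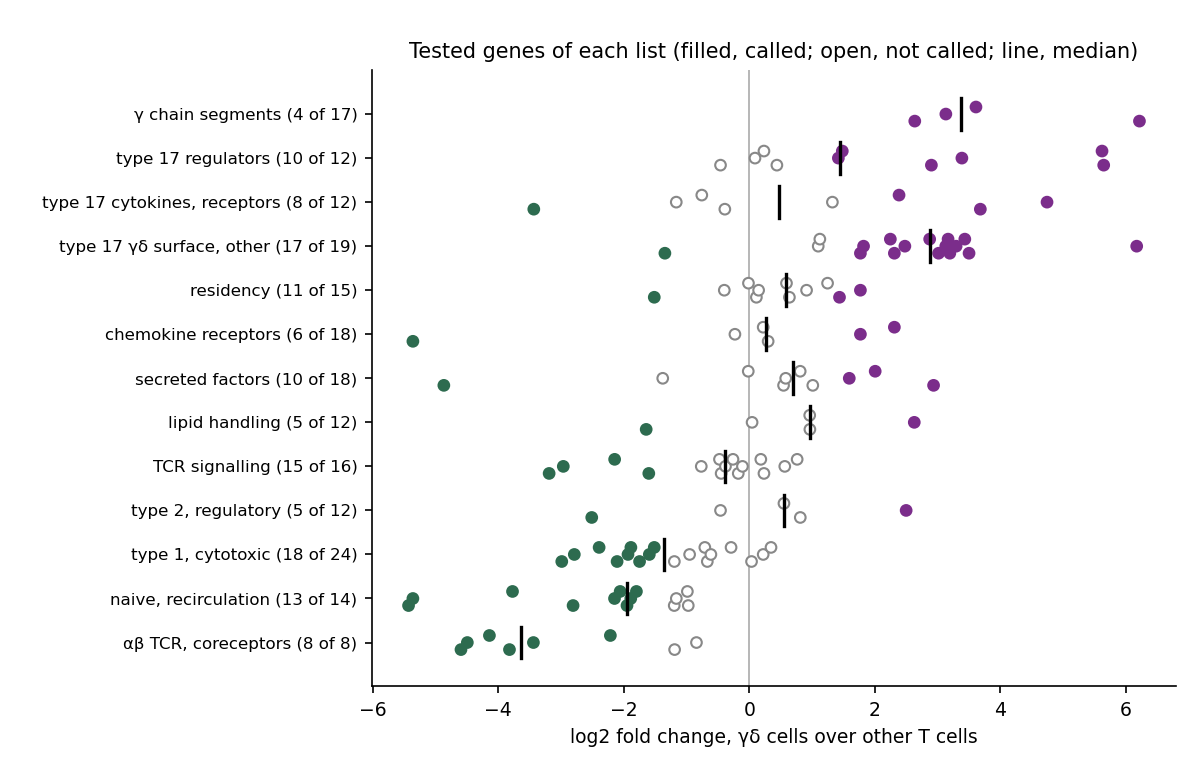
Log2 fold change of each tested gene, gamma-delta over other T cells (edgeR), by gene list; filled points were called, open points were not, and the line is the list's median. Among the listed genes, most of those called higher lie in the 3 type 17 lists (6 of 10, 3 of 8 and 14 of 17 tested) and the gamma and delta segments (4 of 4). The alpha-beta receptor, naive and type 1 lists hold 6, 9 and 9 genes called lower, of 8, 13 and 18 tested, and none called higher. Of all 5827 tested genes, 3.93% were called higher and 2.61% lower. The 4 segments and many other called genes reached the detection limit through 1 cell group alone, which sets their direction.

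Among called genes that did not overlap and held 20 UMIs or more where they were higher, the largest fitted rises were Psd2, Serinc2, Tdrd9, Tcrg-V6, Kcnk1, Sox13, Blk, Cyp2j6, Tns4 and Slc6a13. Psd2 (27 UMIs), Serinc2 (25) and Tdrd9 (47) had none in the 617 other T cells, which makes them at least 29.1-fold, 27.0-fold and 50.7-fold higher against a floor of 3 UMIs over the group. Cyp2j6, a monooxygenase, had 25 UMIs against 1 and Tns4, a tensin, 39 against 2 (ratios of 80.9 and 63.1, with intervals of 13.2 to 3320 and 16.3 to 539). Slc6a13, a transporter of GABA, had 83 against 4 and was higher by 5.18 ± 0.60. The largest falls were Tnfrsf4, Izumo1r, Dapl1, Ccr7, Gm8369, Tnfsf8, Cd6, Tdrp, Btla and Themis. Every rise named here reached the detection limit through gamma-delta T cells alone and every fall through other T cells alone. The limit thus sets their direction. Tnfrsf4, the OX40 receptor of activated and regulatory CD4 T cells, had 2 UMIs in members and 376 in other T cells (ratio 58.1, interval 15.98 to 482), and Izumo1r, the folate receptor of regulatory T cells, 1 and 192.

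Since other T cells mix classes, gamma-delta T cells were also set against CD4 and CD8 T cells alone; these comparisons share the same gamma-delta libraries. Against CD4 T cells, 391 of 5726 genes (6.83%) were called, 235 (4.1%) higher and 156 (2.72%) lower. Against CD8 T cells, 478 of 6133 (7.79%) were called, 305 (4.97%) higher and 173 (2.82%) lower. The levels did not overlap over the libraries for 9.68% of the genes tested against CD4 and 10.8% of those tested against CD8 T cells. Blk, Il23r, Sox13, Ccr2 and Cxcr6 were higher than in both classes. Blk, Il23r and Sox13 reached the detection limit through gamma-delta T cells alone in both comparisons, which sets their direction. Ccr2 and Cxcr6 reached it in every group. For Il23r the log2 fold change was 5.08 ± 0.58 over CD4 and 5.51 ± 0.62 over CD8 T cells (edgeR, adjusted p = 8.01e-08 and 9.34e-09). Blk had 1 UMI in CD4 and 0 in CD8 T cells. Maf and Rora parted gamma-delta T cells from CD8 T cells (3.11 ± 0.25 and 2.66 ± 0.23) and were not called against CD4 T cells (0.54 ± 0.17 and 0.84 ± 0.18). Of the 10 tested IL-17 regulators, 4 were higher than in CD4 and 6 higher than in CD8 T cells, and of the 17 further type 17 genes 14 and 16. Type 1 genes were 13 of 21 lower than in CD8 T cells, and 3 of 11 lower with 1 (Klrk1) higher than in CD4 T cells. Naive genes were lower in 12 of 14 against CD4 and 10 of 13 against CD8 T cells. List members that reached the detection limit through 1 group alone had their direction set by it, so these counts are descriptions. The differences between these counts were not tested.

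Il17a, which encodes interleukin-17A, was not called against other T cells. All cells that passed held 3572 Il17a UMIs, of which 1009 lay in 68 gamma-delta T cells, 2544 in 45 other T cells and 19 elsewhere. No B or NK cell held any (0 of 782 and 0 of 228, which allows up to 0.384% and 1.32%). By library, gamma-delta T cells had 0, 63, 0, 3, 50 and 893 UMIs, in 0, 1, 0, 1, 8 and 58 cells, and other T cells had 134, 1, 0, 2, 1069 and 1338. The bone-associated libraries thus held 943 of the 1009 and 2407 of the 2544 UMIs, and the largest exceptions were 1 gamma-delta cell of cortical surface library 2, with 63 UMIs, and 3 CD4 T cells of cortical surface library 1, with 134. Pooled over libraries, 32.1% of gamma-delta and 6.85% of other T cells held it, and 20.3% and 5.48% after thinning to 1500 UMIs. By library, 3 of 23, 1 of 17, 0 of 107, 2 of 205, 18 of 99 and 21 of 206 other T cells held it, so the share was larger in gamma-delta T cells of both bone-associated libraries (8 of 21 and 58 of 146) and smaller in cortical surface library 1 (0 of 5). The median over the positive cells of all libraries was 4 UMIs against 14, and 34.5 in the 28 positive CD4 T cells. By library the medians were 2.5 against 23.5 and 5.5 against 10 in bone-associated libraries 1 and 2, while the single positive gamma-delta cells of cortical surface libraries 2 and 4 held 63 and 3 UMIs against a median of 1 in both. The highest gamma-delta cell held 103 UMIs and the highest other T cell 366. Summed levels were 0, 30.6, 376 and 918 CPM in the 4 tested libraries of gamma-delta T cells and 0, 1.42, 1460 and 874 CPM in other T cells. The difference in summed level was −0.76 ± 0.32 (edgeR adjusted p = 0.13). It hung on single libraries: without bone-associated library 2 Il17a was called lower (−1.88, adjusted p = 0.0021), and without bone-associated library 1 the value was 0.0901. The level was lower than in CD4 T cells (−2.14 ± 0.29, edgeR adjusted p = 2.16e-06) and higher than in CD8 T cells (3.42 ± 0.38, adjusted p = 7.78e-09). When 1 library was left out these values ran from −3.10 (without bone-associated library 2) to −1.34 (without library 1) and from 2.86 (without library 1) to 7.57 (without library 2), and both calls held, but the levels overlapped in both comparisons. Against CD8 T cells Il17a reached the detection limit through gamma-delta T cells alone, which sets its direction there. In cortical surface library 4, 18 members held 3 UMIs and 56 CD4 T cells held 1, and in library 3 neither held any. Few cells carry these sums. The 5 highest gamma-delta cells held 38.8% of their group's Il17a UMIs, and the 5 highest other T cells 44.8%. Il17f was found in 2.36% of members and 2.59% of other T cells.

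A UMI of any of Il23r, Il17a or Il17f was found in 114 of 212 gamma-delta T cells, 53.8% (95% exact interval 46.8 to 60.6, counting error only). By library the counts were 0 of 5, 1 of 2, 4 of 20, 6 of 18, 14 of 21 and 89 of 146. The share was 8.52% in other T cells, 15.05% in CD4, 2.87% in CD8, 0.128% in B and 0.439% in NK cells. Il23r alone was found in 31.6% of members and 1.67% of other T cells (11.3% and 0.457% after thinning).

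Nuclear receptors such as Rora recognise the letters AGGTCA. The 250 bases before the RefSeq start of Il17a and Il23r (GRCm38.p6, on the gene's strand) are shown as those of the cytokine and the interleukin-23 receptor of the type 17 lists, with AGGTCA or its reverse complement TGACCT in capitals. Il17a lies on the forward strand, at chr1:20730655-20730904, and Il23r on the reverse strand, at chr6:67491856-67492105.
Il17a: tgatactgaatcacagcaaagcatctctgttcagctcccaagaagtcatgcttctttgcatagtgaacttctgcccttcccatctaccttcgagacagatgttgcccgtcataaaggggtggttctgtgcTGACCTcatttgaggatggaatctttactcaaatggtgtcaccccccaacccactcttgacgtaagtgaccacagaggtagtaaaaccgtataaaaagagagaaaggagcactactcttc
Il23r: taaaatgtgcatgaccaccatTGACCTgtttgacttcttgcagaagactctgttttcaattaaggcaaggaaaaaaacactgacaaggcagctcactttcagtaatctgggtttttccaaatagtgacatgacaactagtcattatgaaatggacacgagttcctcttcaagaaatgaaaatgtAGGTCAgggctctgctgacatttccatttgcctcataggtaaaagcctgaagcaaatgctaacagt
The search on both strands found 1 match before Il17a and 2 before Il23r. Of all 32851 promoter windows of this length in the table, 14.0% held a match, against 8 of the 44 windows (18.2%) of the 33 genes with an entry among the 43 of the 3 type 17 lists. A match of these letters is a description of the sequence, and no binding was measured.

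The members were not uniform. A Cd163l1 or Trdv4 UMI was present in 185 of them (1, 2, 13, 14, 18 and 137 by library) and absent from 27 (4, 0, 7, 4, 3 and 9), which had entered through Trdc and Tcrg-C1. Since the split uses 2 genes of the rule, and too few libraries held 10 cells of both kinds, shares are given as a description with no test. The median depth was 5942 UMIs in the 185 and 7156 in the 27, and its part in the shares was not tested. Blk was found in 78.9% of the 185 and 7.41% of the 27. Il1r1 was found in 60.5% and 3.70%, Serpinb1a in 74.6% and 11.1%, Ccr2 in 91.9% and 22.2%, and Maf in 87.03% and 37.0%. Il17a (36.8%), Il23r (36.2%) and Tcrg-V6 (43.2%) were found in no cell of the 27, which allows up to 11.1%. The 27 came mostly from the cortical surface (15) and the 185 mostly from the bone-associated libraries (155), so shares were also taken within each preparation. In the cortical surface libraries Blk was found in 76.7% of 30 and 6.67% of 15, Il23r in 30.0% and none, Tcrg-V6 in 18 cells and none, and Il17a in 6.67% and none (none of 15 allows up to 20.0%). In the bone-associated libraries Blk was found in 79.4% of 155 and 8.33% of 12, Il23r in 37.4% and none, Tcrg-V6 in 40.0% and none, and Il17a in 42.6% and none (none of 12 allows up to 25.0%). Of the 24 listed type 1 genes, 22 were found in a larger share of the 27 than of the 185 and none in a smaller one. Nkg7 was found in 4.86% of the 185 and 85.2% of the 27, Ccl5 in 4.32% and 77.8%, the chemokine Xcl1 in 1.62% and 74.1%, Cd27 in 9.19% and 63.0%, Ly6c2 in 2.16% and 59.3%, and Tbx21, the type 1 master regulator, in 12.4% and 33.3%. Within the preparations, Nkg7 was found in 3.33% and 93.3% in the cortical surface libraries and in 5.16% and 75.0% in the bone-associated ones, and 21 and 19 of the 24 type 1 genes had the larger share in cells with neither gene (0 and 2 the smaller). Tcrg-V1 was found in 8.11% and 37.0%. Cd3e was found alike in both (96.2% and 96.3%), and so was Trac (17.3% and 14.8%), while Trdc stood at 3820 CPM in the 185 and 1218 CPM in the 27. The NK cell genes Ncr1 and Klrb1c were found in 25.9% and 33.3% of the 27 and in none of the 185 (which allows up to 1.62%). The 10 members with either of these genes all held Nkg7, Ccl5, Fcer1g and Xcl1, and none held Blk or Il17a. Whether some of these 10 were NK cells with a Cd3 UMI was not tested. Leaving the 10 out changed no count of called genes between gamma-delta and other T cells by over 1.5 times.

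**Figure D3:**
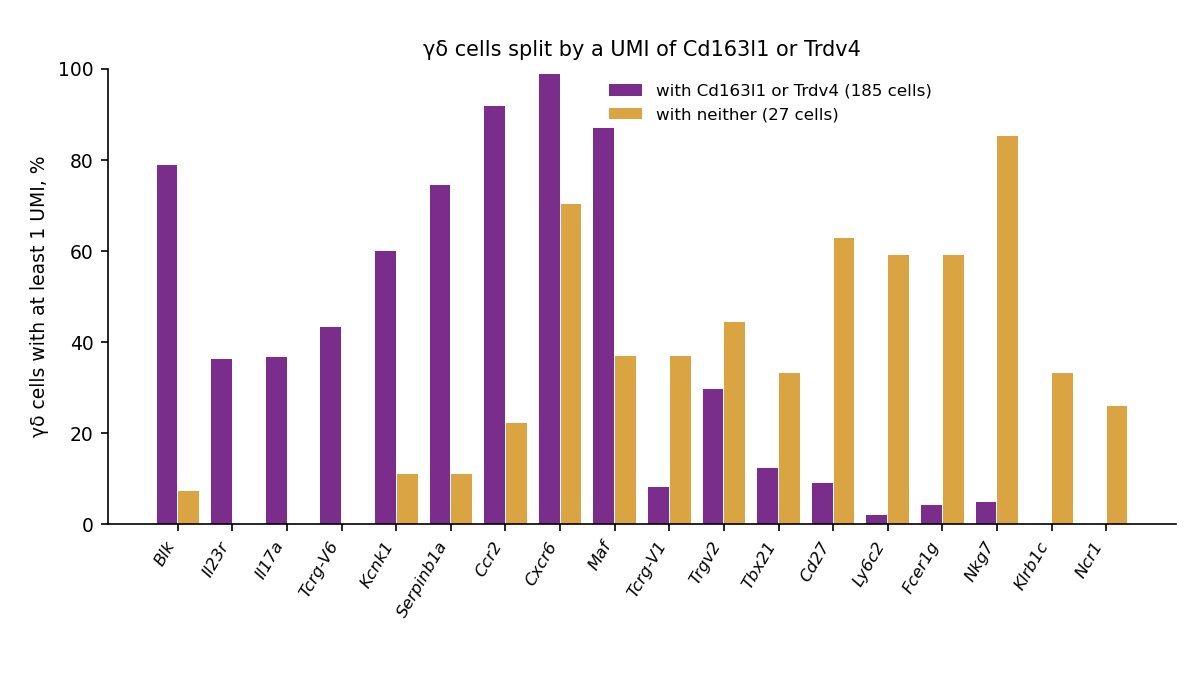
Percent of cells with a UMI of 18 genes among the 185 members with a Cd163l1 or Trdv4 UMI and the 27 with neither. Blk, Serpinb1a, Ccr2 and Kcnk1 are frequent in the 185, and Nkg7, Cd27, Ly6c2 and Fcer1g in the 27.

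Gamma-delta T cells were 17.9, 10.5, 15.7, 8.07, 17.5 and 41.5% of T cells (members and other T cells together). The 95% exact intervals were 6.06 to 36.9, 1.301 to 33.1, 9.89 to 23.3, 4.85 to 12.5, 11.2 to 25.5 and 36.3 to 46.8%. Bone-associated library 2 stood above the others, and bone-associated library 1 lay within the range of the cortical surface. The means were 13.1% ± 4.53 (SD, n = 4) and 29.5% ± 16.95 (SD, n = 2), which an exact permutation test did not part (two-sided p = 0.133, where the smallest possible is 0.0667). The difference, cortical surface minus bone-associated, was −16.4 percentage points, −4.45 without bone-associated library 2 and −28.4 without library 1. As a share of all cells that passed, members were 0.673, 0.160, 1.81, 0.803, 2.18 and 5.84%, with p = 0.0667 in the same exact test, the smallest possible.

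**Figure D4:**
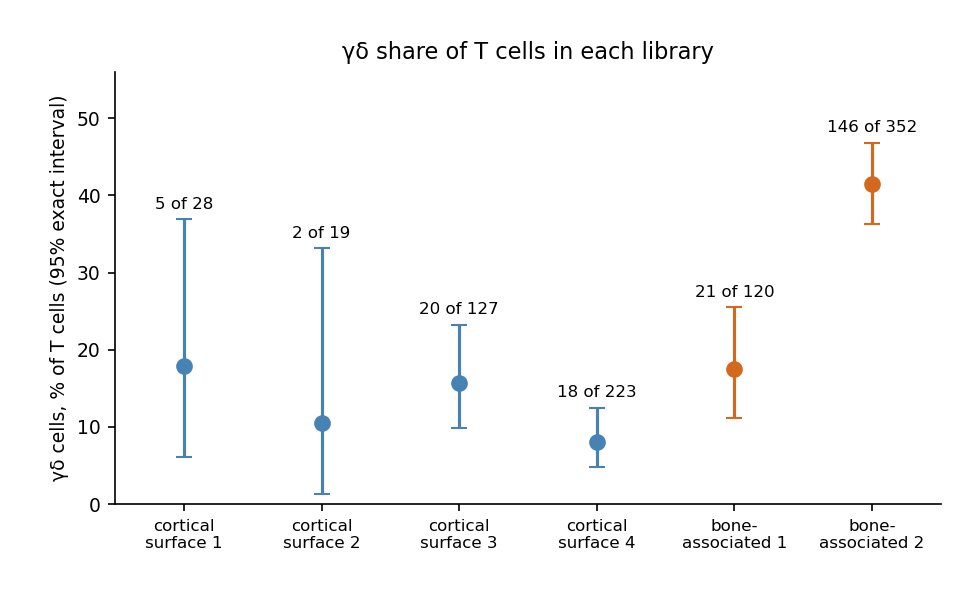
Gamma-delta T cells as a percent of all T cells in each library, with 95% exact binomial intervals, for the 4 cortical surface and the 2 bone-associated libraries. Bone-associated library 2 stands at 41.5% and the other 5 libraries between 8.07 and 17.9%.

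Gamma-delta T cells of the bone-associated libraries were compared with those of cortical surface libraries 3 and 4, at n = 2 against 2. Of 6316 genes tested, 357 (5.65%) were called, 307 (4.86%) higher and 50 (0.792%) lower in the bone-associated cells, and for 48.6% the levels did not overlap, so that no overlap says little here. Without cortical surface library 4 only 4 genes, all hemoglobins, were called, without library 3 it was 126, and without bone-associated library 2 it was 211. The preparation could not be told apart from sex make-up, hemoglobin load, mitochondrial share and library, as given above. The same contrast in other T cells called 566 of 5777 genes (9.8%), 436 (7.55%) of them higher. A gene that reached the detection limit through 1 preparation alone has its direction set by that limit. The counts and medians of lists in these contrasts are therefore descriptions.

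The list of immediate-early and heat shock genes, which cells switch on rapidly after a stimulus, held more called genes than any of the other lists: 14 of 16 tested were higher, at a median of 2.17 against 0.00 for all tested genes. When 1 library was left out, the list's median ran from 1.58 (without bone-associated library 2) to 2.49 (without cortical surface library 3). The 14 calls did not all hold in these fits, which leave 1 library in a group. The list's summed level in gamma-delta T cells was 7071, 9532, 2236, 2253, 8094 and 10591 CPM, and in other T cells 7341, 8302, 1945, 2403, 7254 and 8065 CPM. Cortical surface libraries 3 and 4 stood low in both cell groups. In gamma-delta T cells cortical surface library 1 lay below both bone-associated libraries and library 2 between them. In members with Xist and no Y-linked UMI the sum was 1682 and 1670 CPM in cortical surface libraries 3 and 4 (6 and 8 cells) and 7682 and 10595 CPM in the bone-associated libraries, and 5 of the 16 genes were called higher in that subset (edgeR), where 1.19% of all tested genes were. Junb stood at 1626, 3420, 315, 520.0, 2550 and 3510 CPM, with a log2 fold change of 3.09 ± 0.23 (edgeR adjusted p = 4.44e-17). Without cortical surface library 4 the value was 3.52 and the call was lost (adjusted p = 0.13), and with cortical surface libraries 1 and 2 in place of 3 and 4 it was 1.14. Fos stood at 259, 1164, 30.7, 30.6, 203 and 435 CPM (3.68 ± 0.46), and with libraries 1 and 2 it was −0.01. In other T cells Junb was higher by 1.99 ± 0.18 and Fos by 2.45 ± 0.41, and 11 of the 16 were called higher. In other T cells, with cortical surface libraries 1 and 2 in place of 3 and 4, 2 were called higher and 1 (Hspa1b) lower. The median was 0.13, and 97 of 6279 tested genes (1.54%) were called higher and 20 lower in that fit (edgeR). With all 6 libraries 3 were called higher in other T cells, beside 5.59% of all tested genes (edgeR). With the same exchange, none of the 16 was called in gamma-delta T cells (edgeR), where 1.12% of all tested genes were called higher, and their median log2 fold change was 1.19 against 0.32 for all tested genes.

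A smaller set also held against cortical surface libraries 1 and 2, which rest on 5 and 2 members. Crem, a cyclic AMP response factor, stood at 23.6, 0, 15.4, 30.6, 707 and 465 CPM, with a log2 fold change of 4.88 ± 0.43 (edgeR adjusted p = 2.12e-14), 5.60 with libraries 1 and 2 (adjusted p = 1.7e-05) and 6.07 in cells with Xist and no Y-linked UMI (adjusted p = 0.016). Nr4a3, an orphan nuclear receptor induced by receptor signalling, stood at 70.7, 0, 23.1, 10.2, 970 and 332 CPM (5.29 ± 0.50, and 4.17 with libraries 1 and 2). Furin, a protease that activates growth factors, was higher by 3.89 ± 0.43, and by 3.10 with libraries 1 and 2. Rora stood at 0, 146, 200, 245, 978 and 803 CPM (2.21 ± 0.26, and 5.18 with libraries 1 and 2). Crem and Nr4a3 were also higher in the bone-associated other T cells (4.11 ± 0.34 and 6.87 ± 0.57). In other T cells both genes reached the detection limit through the bone-associated cells alone, which sets their direction there. Plin2 stood at 0, 0, 15.4, 20.4, 188 and 241 CPM (3.85 ± 0.54) and was called with either pair of cortical surface libraries. The costimulator Icos, at 23.6, 946, 84.5, 81.6, 609 and 763 CPM, was called against libraries 3 and 4 (3.27 ± 0.31) and not against libraries 1 and 2 (1.87). Without cortical surface library 4, which leaves 1 cortical surface library in the fit, all of these calls were lost (edgeR adjusted p from 0.158 for Furin to 0.302 for Nr4a3), while the log2 fold changes were 5.43 for Crem, 4.96 for Nr4a3, 4.34 for Furin, 2.38 for Rora, 4.06 for Plin2 and 3.28 for Icos.

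**Figure D5:**
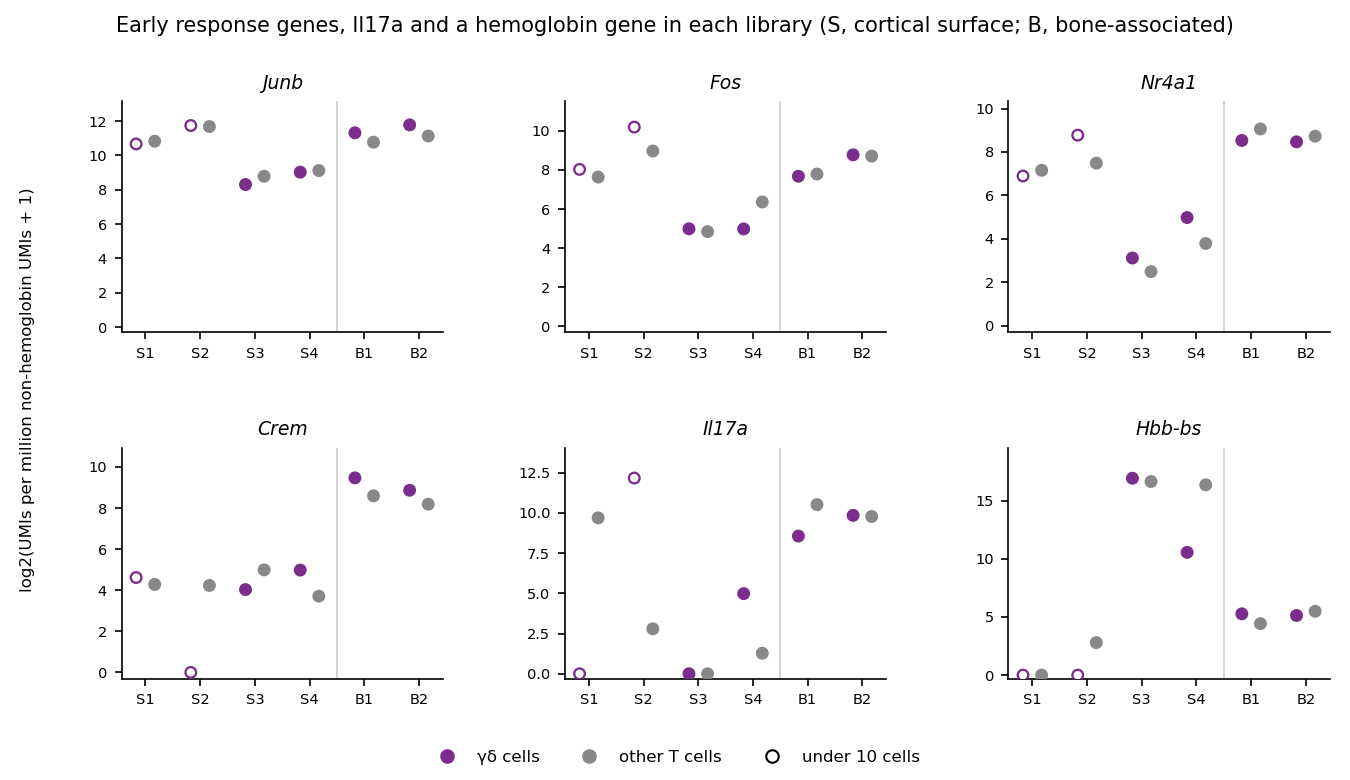
Level of Junb, Fos, Nr4a1, Crem, Il17a and Hbb-bs in each library, as log2(CPM + 1), for gamma-delta and other T cells; open points rest on under 10 cells. Junb and Fos are low in cortical surface libraries 3 and 4 alone, Crem is low in all 4 cortical surface libraries, and Hbb-bs is high in cortical surface libraries 3 and 4.

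Of the 33 tested genes of the 3 type 17 lists, 4 were higher and 1 was lower, beside 4.86% and 0.792% of all tested genes. Of 10 regulators, Rora was higher, as above, and Id2 lower (−1.42 ± 0.25), and of 16 further type 17 genes Krt83 alone was higher; Sox13 (−0.09), Kcnk1 (0.02) and Blk (0.76) were not called. Of 7 type 17 cytokines and receptors, Il17a and Il1r1 were higher. Il17a reached the detection limit through the bone-associated cells alone. Il17a had 943 UMIs in the bone-associated cells and 3 in cortical surface libraries 3 and 4, a ratio of 64.8 (95% counting interval 22.1 to 315), but with cortical surface libraries 1 and 2 the fitted value was −0.58, and 1 cell of library 2 held 63 UMIs. Il1r1 was higher by 1.37 ± 0.39 and Il23r was not called (1.13 ± 0.51). Of the 12 residency genes 7 were higher, among them Nr4a1, Nr4a3 and Crem, and 1, the integrin Itga1, lower (median 1.89). Itga1 reached the detection limit through the cortical surface cells alone. Of the 10 factors acting on other cells 4 were higher: Furin, Tgfb1, Tnfsf11 (2.63 ± 0.58) and Areg, an epidermal growth factor receptor ligand with 61 UMIs against none, at least 4.19-fold higher. Areg reached the detection limit through the bone-associated cells alone. Of 15 type 1 genes 5 were lower, among them Nkg7 (−2.05 ± 0.33), Klrd1, Klre1 and Ly6c2, and 1, Il2rb, was higher. Klrd1, Klre1 and Ly6c2 reached the detection limit through the cortical surface cells alone. The log2 fold change of Il2rb was 1.52 ± 0.29. It was 0.24 with cortical surface libraries 1 and 2 in place of 3 and 4 and 0.75 with all 6 libraries. Il2rb was not called in either alternative (edgeR). The members without Cd163l1 and Trdv4 were 7 of 20 and 4 of 18 in cortical surface libraries 3 and 4 and 3 of 21 and 9 of 146 in the bone-associated ones. With those cells left out, in a fit chosen after seeing the data, 6 of the type 1 genes were tested, none was lower and Il2rb was higher (2.63, edgeR adjusted p = 0.0072), while Nkg7, Klrd1, Klre1 and Ly6c2 did not reach the detection limit. In that fit 135 of 6217 tested genes (2.17%) were called higher and 8 lower.

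The 10 largest rises all reached the detection limit through the bone-associated cells alone, which sets their direction. Among them, Mgp (at least 54.6-fold) and Lyz2 (at least 23.6-fold) are matrix and myeloid genes. Of the 794 Mgp UMIs, 791 lay in bone-associated library 2 and 3 in library 1 (813 and 22.6 CPM). Lyz2 stood at 22.6 and 349 CPM in bone-associated libraries 1 and 2, where the myeloid genes summed to 113 and 783 CPM. The part of RNA from other cells in these was not tested. Nr4a2, a relative of Nr4a3, had 368 UMIs in the bone-associated cells and none in cortical surface libraries 3 and 4, at least 25.3-fold higher. Cdkn1a, a cell cycle inhibitor, was at least 21.0-fold higher, Calca, the precursor of the neuropeptide CGRP, at least 9.63-fold, the kinase Pim3 at least 9.83-fold and Zc3h12a, a nuclease that degrades cytokine RNA, at least 6.88-fold. Calca stood at 0, 0, 0, 0, 67.7 and 135 CPM. The 4 hemoglobin genes led the falls. Of these, Hba-a1, Hba-a2 and Hbb-bt reached the detection limit through the cortical surface cells alone. The hemoglobin Hbb-bs stood at 0, 0, 124263, 1499, 37.6 and 33.9 CPM, and cortical surface library 3 alone carried most of it. The interaction of cell group and preparation was called for 15 of 6738 genes (0.223%), and at an unadjusted p under 0.05 for 428 (edgeR).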

How the data were processed

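The authors deposited raw UMI counts per gene and barcode for 6 libraries, aligned to mm10. The labels name Cell Ranger 3 and the file headers Cell Ranger 6.1.2. The labels and the study's methods differ on how tissue was dissociated. Deposited libraries held 8408685, 16998497, 55385796, 56169736, 12041325 and 27511208 UMIs (cortical surface libraries 1 to 4, bone-associated libraries 1 and 2).

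Cells were kept at 500 or more genes and at most 10% mitochondrial UMIs, and doublets (124 called, scored against 2 simulated doublets per cell at an assumed 0.8% per 1000 cells) stayed in the main analysis. UMIs were summed per library and cell group, for libraries with at least 10 cells of each group. Genes with a UMI in at least 10% of either group's cells were tested with edgeR 4.0.16 (TMM, quasi-likelihood, R 4.3.3), with Benjamini-Hochberg adjustment. They were called at an adjusted p under 0.05 and a log2 fold change of at least 1.3. Log2 fold changes come from that fit, and their SE is the absolute log2 fold change divided by the square root of the test's F statistic. DESeq2 1.42.0 was an alternative. The tests were also run on simulated counts, where all libraries had the same expression profile apart from the changed genes. That run does not cover differences between libraries such as those seen here. Each library is a pool of mice, and nothing says that libraries came from separate days or cohorts, so p-values measure the spread between these libraries. Shares carry 95% exact binomial intervals, and a count of 0 was given a floor of 3 counts; both cover counting error only. Named genes are those of 22 lists and, per comparison, the 10 largest called changes in each direction with at least 20 UMIs and no overlap between groups. Members and lists were chosen with earlier results of these data known. The test of members with against without Cd163l1 or Trdv4 could not be run. Of 31053 genes in the files, 30934 were matched to GENCODE vM21 for coordinates. Promoters are from RefSeq. Some listed genes count in their lists but are not reported here.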

Additional observations from a re-analysis of the deposited data

Results flagged for a closer look

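Of 23 quantities compared over the 4 cortical surface libraries in gamma-delta T cells (the sums of 22 lists and the share of T cells), 4 list sums had a library far from the other 3. These were the type 17 cytokines (5021 CPM in library 2, from 2 cells), the type 2 and regulatory genes (1965 CPM in library 2), the B cell genes (0 CPM in library 2) and the hemoglobin genes (239261 CPM in library 3). The gaps were set against Dixon's 95% critical value for 4 values, which chance alone passes in about 1 in 20 such groups.

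The preparation difference itself differed between gamma-delta and other T cells for 15 genes (edgeR, interaction of cell group and preparation). On the log2 scale, gamma-delta minus other T cells, it was 12.12 for Lyz2, 3.18 for Apoe, 6.26 for S100a8, 8.85 for Igfbp4, 3.496 for Ttr, 1.32 for Fgl2, 1.78 for Cst3, 1.82 for Cstb, 2.07 for Ly6a and 2.43 for Ctss. It was −7.59 for Csf2, −2.30 for Cd7, −2.60 for Gimap7, −3.66 for Ifng and −1.37 for Srsf2. Csf2, a myeloid growth factor, had 9 UMIs in gamma-delta T cells of cortical surface libraries 3 and 4 and 48 in the bone-associated ones, and 1 and 322 in other T cells. Ifng had 10 and 8 UMIs in gamma-delta T cells and 107 and 310 in other T cells. Lyz2 had 0 and 343 UMIs in gamma-delta T cells and 677 and 146 in other T cells, and S100a8 3 and 12 against 4229 and 35. Markers of other cells moved with these values, since the 5 neutrophil genes summed to 6130 CPM in the other T cells of cortical surface library 4, and the 13 myeloid genes to 2433 CPM there and to 783 CPM in the gamma-delta T cells of bone-associated library 2. Their part in the 15 genes was not tested.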

How the results depend on the processing

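Small numbers of members and 2 libraries a preparation limit these results. Between gamma-delta and other T cells, 381 called genes became 184 after thinning to 1500 UMIs, 218 with no replicate block and 211 in the cortical surface libraries only, and 275 to 385 when 1 library was left out; 217 of the 218 were among the 381. Thinning also cut the genes tested from 5827 to 1978, and in the preparation contrast from 6316 to 2574. Without bone-associated library 2, 391 became 216 against CD4 and 478 became 302 against CD8 T cells (leaving out 1 library gave 216 to 410 and 302 to 490). For the preparation, 357 became 178 with DESeq2, 163 with at least 3 markers, 116 after thinning, 143 in members with Cd163l1 or Trdv4 only, 101 with cortical surface libraries 1 and 2 and 81 in cells with Xist and no Y-linked UMI (the last 3 chosen after seeing the data), and 4 to 363 when 1 library was left out. In other T cells, 566 became 117 with cortical surface libraries 1 and 2, and 488 to 859 when 1 library was left out, and the 15 interaction genes 7 to 29. The share difference ranged from −28.4 to −4.45. After thinning, Il17a was found in 20.3% of members, Il17f in 1.37% of other T cells, and Il23r in 11.3% and 0.457%. Signs turned for Csf2 against other T cells (1.53 with DESeq2, 5.45 in cortical surface libraries, −1.78 to 1.64 when 1 library was left out, highest without bone-associated library 2), for Il17a (0.70 with DESeq2, −1.88 to 0.0901 when 1 library was left out, highest without bone-associated library 1), and in the preparation contrast for Apoe (−1.99 to 3.49 when 1 library was left out, lowest without bone-associated library 2) and, with cortical surface libraries 1 and 2, for Fos (−0.00958), Hbb-bs (6.37), Hist1h4d (5.24), Id2 (0.12) and Il17a (−0.58), and in other T cells for Hbb-bs (3.58) and Junb (−0.21). The cause was not tested. Of the values of named genes under alternatives, 1564 kept direction and side of the threshold against other T cells, 40 lost the call and 8 gained it; for the preparation the numbers were 776, 202 and 2. No paired analysis of the preparation was possible, because neither the labels nor the paper link a cortical surface pool to a bone-associated pool of the same mice.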
